A study of Mus musculus with 12 samples.

Results

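The glutathione transferases, UDP-glucuronosyltransferases (UGTs) and sulfotransferases of mouse ileal enteroids were followed across 4 culture conditions. They were taken as every row of the deposited count table whose gene name began with Gsta, Gstm, Gstp, Gstt, Gsto, Gstk, Gstz, Mgst, Ugt1a, Ugt2a, Ugt2b or Sult and a digit. The rule found 47 of 18068 genes, in 12 families: 24 glutathione transferases (soluble and microsomal), 16 UGTs and 7 sulfotransferases. The rule reads names and no values. These enzymes carry out the conjugation step of detoxification, in which glutathione, glucuronic acid or sulfate is joined to drugs, dietary compounds, bilirubin, bile acids, steroids or the body's own reactive lipids. The product is more soluble and leaves the cell through export pumps, and in the small intestine this limits what passes from the gut lumen into blood. Many glutathione transferase genes are textbook targets of the stress-responsive factor NRF2, and many UGT genes of the xenobiotic receptors and of the enterocyte factor HNF4A.

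Enteroids are three-dimensional cultures of intestinal epithelium; these came from the ileum of wild-type C57Bl/6 mice, a standard inbred strain. One group of 3 libraries received 1 mM butyrate, a short-chain fatty acid made by gut bacteria that inhibits histone deacetylases, for 48 h together with 20 ng/mL IL-13, the type 2 cytokine that signals through STAT6, for 72 h. Another group received 20 ng/mL IL-13 alone for 72 h, another 1 mM butyrate alone for 48 h, and the last was left untreated. The cultures hold epithelium and, by their origin, no lamina propria. The labels do not say how many animals or separate cultures stand behind the 3 libraries of a group, so p-values measure the spread between these libraries, which may be technical. Polyadenylated RNA was read with a strand-marking protocol, and library totals ran from 13867982 to 24294456 counts. Totals were 13867982 to 15618074 counts with butyrate + IL-13 and 14239405 to 15008598 with IL-13. They were 17006538 to 24294456 with butyrate and 16303915 to 22558599 in untreated enteroids. Every library with IL-13 thus had a lower total than every library without it. Epithelial marker genes summed to 8127 to 11297 CPM (the usual unit of counts relative to library size) in all 12 libraries, while 3 mesenchymal markers summed to at most 0.476 CPM, 3 endothelial markers to at most 1.23 CPM and 3 hepatocyte markers to at most 2.27 CPM. The 3 immune markers summed to 6.13 to 10.99 CPM over the 12 libraries. Only 1 of them, Itgam, passed the low-count filter, and it was called in no comparison. The 1 endothelial marker that passed was called higher with IL-13 over untreated (log2 fold change 1.23). The 1 hepatocyte marker that passed was called lower with IL-13 (-1.25) and with butyrate (-1.41), each over untreated. Butyrate replicate 2 and butyrate + IL-13 replicate 3 stood apart in 1 gene, Lars2, at 5048 and 6983 CPM against 423 to 1434 CPM in the remaining ones. Results that changed without these libraries are marked where they stand.

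Genes were compared with edgeR's quasi-likelihood test over 13750 genes with enough counts, and a gene was called at an adjusted p under 0.05. Of the 47 conjugation genes, 43 entered the test. The other 4, Gstt4, Ugt2b38, Sult1a1 and Sult6b1, had 3, 4, 41 and 71 counts over all 12 libraries and were not tested. The 9 Ugt1a rows held nearly the same reads, as shown with the UGTs, so counts are also given with that locus taken once, over 35 features. Levels are CPM after TMM scaling, and fold changes are on the log2 scale with their standard errors.

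IL-13 moved most of these genes. Against untreated enteroids, 29 of 43 rows were called, 7 higher and 22 lower, and 21 of 35 features with the Ugt1a locus once, 7 higher and 14 lower. Over all genes tested 43.5% were called, 21.8% higher and 21.7% lower, so that called features made up 60.0% of the 35. The median log2 fold change was -0.29 over the 43 rows and -0.14 over the 35 features, beside -0.01 over all genes. With butyrate present in both groups, butyrate + IL-13 against butyrate gave 31 of 43 rows, 10 higher and 21 lower, and 23 of 35 features, 10 higher and 13 lower. The background there was 47.7% of all genes, 22.9% higher and 24.9% lower. Butyrate alone moved few: 4 of 43 rows were called against untreated enteroids, 3 higher and 1 lower, with 7.90% of all genes called, 5.14% higher and 2.76% lower. Added to IL-13, butyrate gave 9 called rows, 5 higher and 4 lower, against a background of 21.2%, made up of 9.85% higher and 11.3% lower. The called rows made up 9.30% and 20.9% of the 43 in the butyrate comparisons, or 11.4% and 25.7% of the 35 features, against the backgrounds of 7.90% and 21.2%. The deposited table lists only genes with a corrected p below 1 in the authors' comparison of untreated with IL-13 libraries, so these backgrounds are those of the listed genes.

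**Figure D1:**
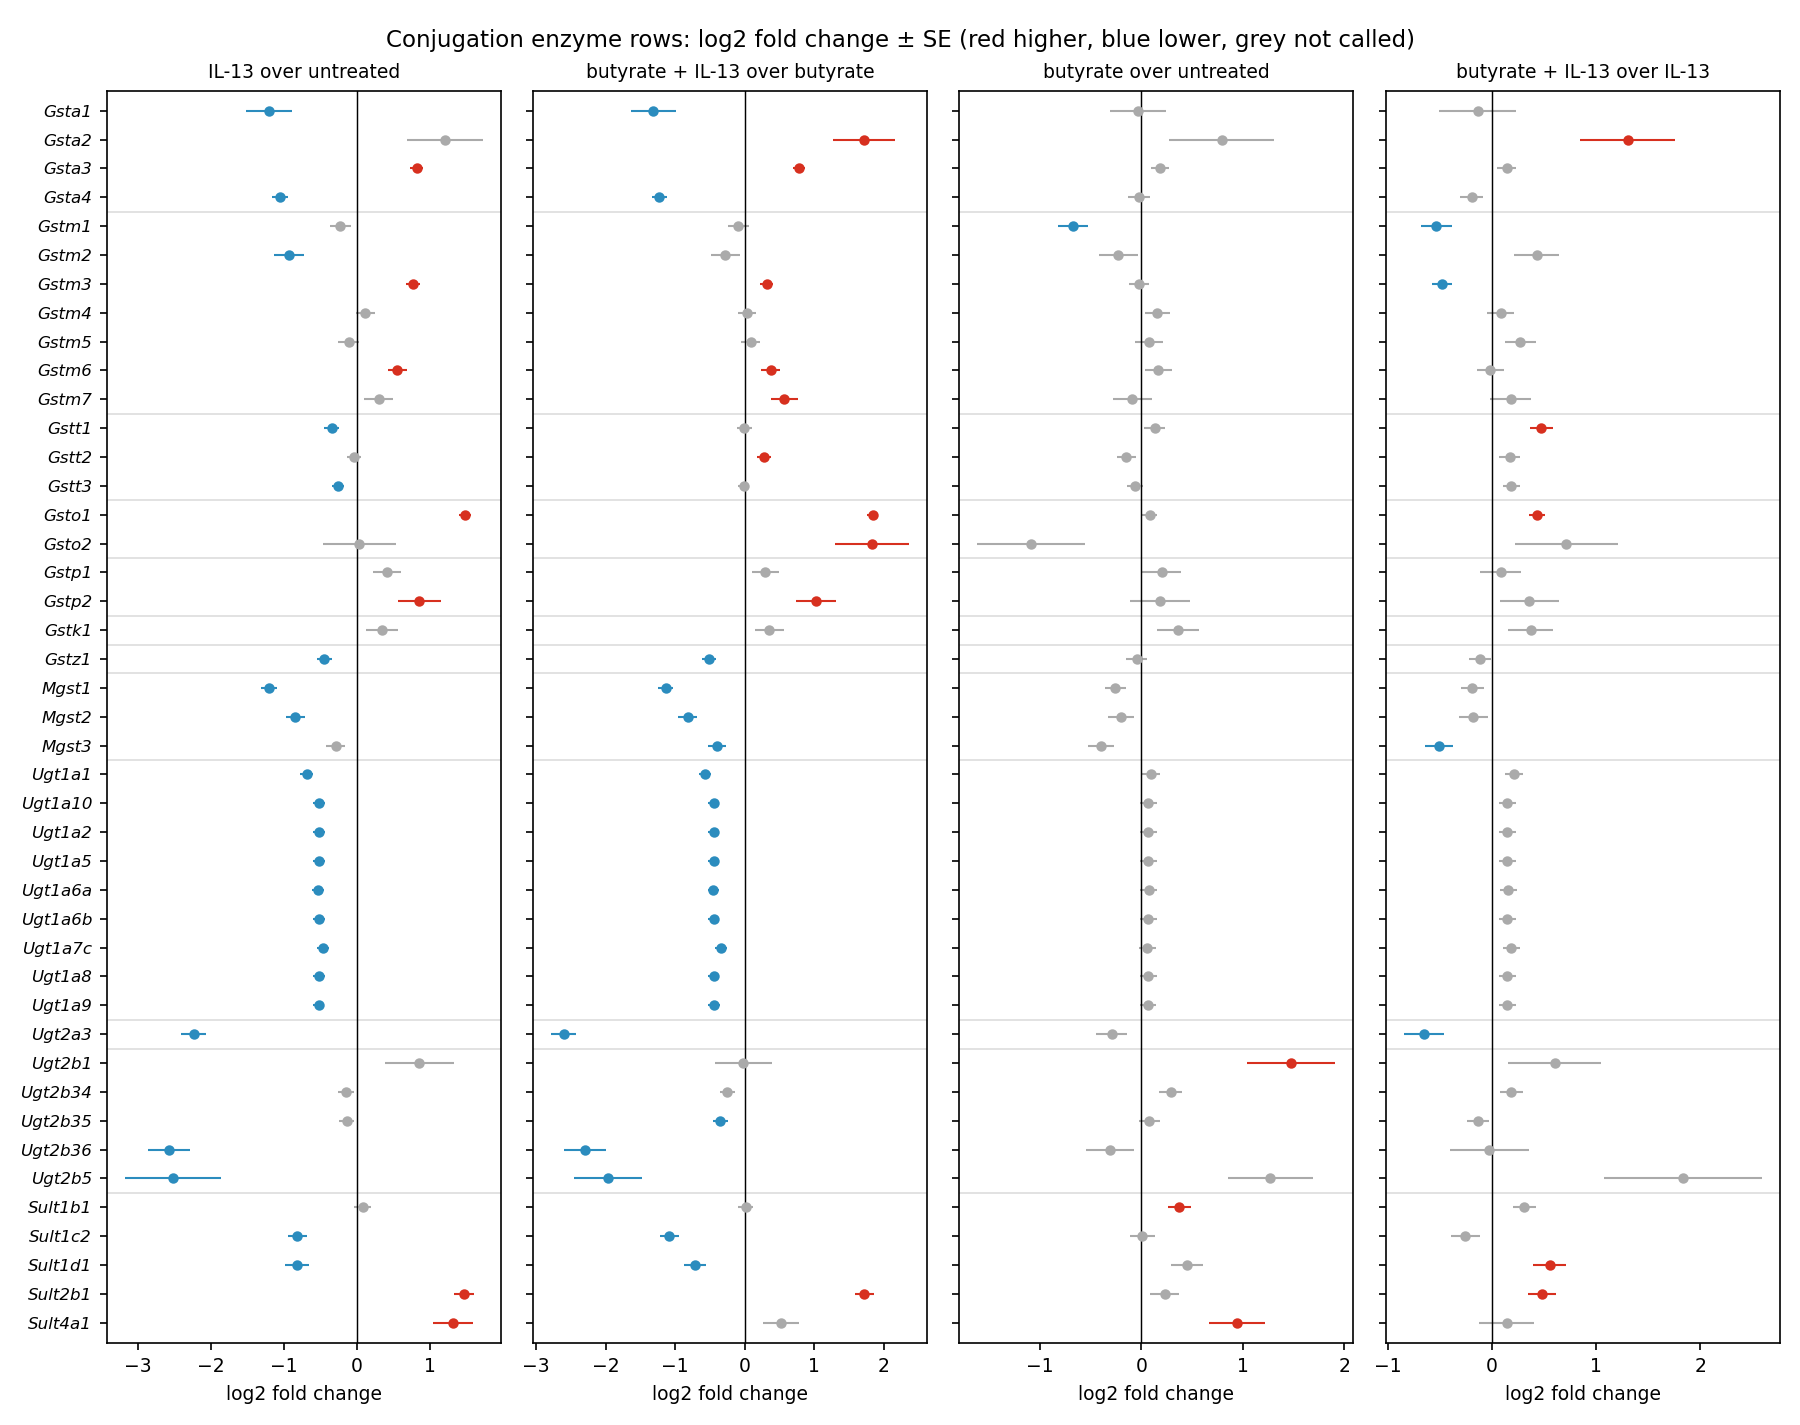
Log2 fold change with its standard error (x axis) of the 43 tested rows (y axis, grouped by family) in 4 comparisons; red points were called higher, blue points lower and grey points were not called at adjusted p under 0.05. Both IL-13 columns show Gsto1 and Sult2b1 far to the right and Ugt2a3 and Ugt2b36 far to the left, while most points of both butyrate columns are grey.

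Gsto1, the omega-class transferase that reduces dehydroascorbate and removes glutathione from protein thiols, was the most abundant conjugation enzyme message per kilobase of exon when averaged over the 4 groups. It lies at chr19:47854970-47864790 (mm10, as for all gene positions here) and had 1487, 1598 and 1601 CPM in butyrate + IL-13 libraries, 1248, 1157 and 1069 CPM in IL-13 libraries, 447, 429 and 433 CPM in butyrate libraries and 427, 419 and 392 CPM in untreated libraries. The 6 libraries with IL-13 all lay above the 6 without it, and those with both agents lay above those with IL-13 alone. Gsto1 rose 2.81-fold with IL-13 over untreated (log2 fold change 1.49 ± 0.08, adjusted p = 6.38e-11) and 3.58-fold with butyrate + IL-13 over butyrate (1.84 ± 0.08, adjusted p = 3.56e-12). It also rose 1.35-fold with butyrate + IL-13 over IL-13 (0.43 ± 0.08, adjusted p = 0.000667), while butyrate over untreated gave 0.08 ± 0.08, adjusted p = 0.605. Its neighbour Gsto2, at chr19:47865545-47886324, had only 112 counts over the 12 libraries. Gsto2 was called in butyrate + IL-13 over butyrate alone (1.83 ± 0.53, adjusted p = 0.00829), and this call was lost without butyrate + IL-13 replicate 3 (adjusted p 0.0866).

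The alpha class split. Gsta4, which conjugates the aldehydes released by lipid peroxidation, had 123, 97.9 and 138 CPM in butyrate + IL-13 libraries, 154, 130.0 and 128 CPM in IL-13 libraries, 285, 279 and 278 CPM in butyrate libraries and 280.1, 309.7 and 265 CPM in untreated libraries. Every library with IL-13 lay below every library without it. Gsta4 fell with IL-13 over untreated (-1.05 ± 0.11, adjusted p = 3.95e-07) and with butyrate + IL-13 over butyrate (-1.23 ± 0.11, adjusted p = 4.69e-08). Gsta3, the mouse enzyme known for detoxifying the aflatoxin epoxide, went the other way, at 85.0, 91.4 and 95.1 CPM in butyrate + IL-13 libraries, 76.2, 91.5 and 78.5 CPM in IL-13 libraries, 56.1, 52.5 and 49.3 CPM in butyrate libraries and 44.6, 48.7 and 45.6 CPM in untreated libraries. Gsta3 rose with IL-13 over untreated (0.83 ± 0.09, adjusted p = 9.65e-07) and with butyrate + IL-13 over butyrate (0.78 ± 0.09, adjusted p = 1.40e-06), and the groups did not overlap in either comparison. Gsta1 and Gsta2 are near-identical copies whose reads the counting could split, and both were rare. Gsta1 averaged 1.19 ± 0.559 CPM with butyrate + IL-13, 1.33 ± 0.399 CPM with IL-13, 2.98 ± 0.403 CPM with butyrate and 3.06 ± 0.368 CPM in untreated enteroids (mean ± SD, n = 3), and fell with IL-13 over untreated (-1.21 ± 0.32, adjusted p = 0.00496). It also fell with butyrate + IL-13 over butyrate (-1.31, adjusted p = 0.00306). Gsta2 averaged 2.58 ± 0.739 CPM with butyrate + IL-13, 1.04 ± 0.407 CPM with IL-13, 0.760 ± 0.302 CPM with butyrate and 0.442 ± 0.304 CPM in untreated enteroids. It was not called with IL-13 over untreated (1.21 ± 0.52, adjusted p = 0.0704) but rose with butyrate + IL-13 over butyrate (1.72 ± 0.45, adjusted p = 0.00414), a call lost without both libraries high in Lars2 (0.0553). With the counts of both copies summed, IL-13 over untreated gave -0.57, adjusted p = 0.0867, and butyrate + IL-13 over butyrate 0.01, adjusted p = 0.985.

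Of the 7 mu-class genes, clustered on chromosome 3, 2 were called higher and 1 lower with IL-13 over untreated. The shares of all genes were 21.8% higher and 21.7% lower. Gstm3 (chr3:107942333-107969283) was the most abundant, with 398, 374 and 388 CPM in butyrate + IL-13 libraries, 499, 619.9 and 496 CPM in IL-13 libraries, 303, 284 and 344 CPM in butyrate libraries and 337, 316 and 292 CPM in untreated libraries. The 3 IL-13 libraries were the highest, above those with both agents, which in turn lay above all 6 without IL-13. Gstm3 rose with IL-13 over untreated (0.77 ± 0.10, adjusted p = 4.03e-06), and butyrate + IL-13 lay below IL-13 (-0.48 ± 0.10, adjusted p = 0.00179). It was also called higher with butyrate + IL-13 over butyrate (0.32 ± 0.10, adjusted p = 0.0111), a call lost when scaled by library totals alone (0.432) and without both libraries high in Lars2 (0.0675). Gstm6 rose with IL-13 over untreated (0.56 ± 0.13, adjusted p = 0.00206); its row, at chr3:107938847-107943749, overlaps that of Gstm3 on the same strand, so reads in the shared stretch cannot be told apart. Gstm6 averaged 30.3 ± 1.12 CPM with butyrate + IL-13, 30.7 ± 5.62 CPM with IL-13, 23.4 ± 1.62 CPM with butyrate and 20.8 ± 2.93 CPM in untreated enteroids. Gstm2 had 10.9 ± 1.63 CPM with butyrate + IL-13, 8.10 ± 2.72 CPM with IL-13, 13.2 ± 2.39 CPM with butyrate and 15.4 ± 2.43 CPM in untreated enteroids, and fell with IL-13 over untreated (-0.93 ± 0.21, adjusted p = 0.00131).

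Gstm1, a main mu-class enzyme of mouse tissues, was the only member of the 43 whose call with butyrate over untreated held under every alternative tried. It had 72.8, 63.3 and 80.7 CPM in butyrate + IL-13 libraries, 89.0, 125 and 101 CPM in IL-13 libraries, 75.3, 60.3 and 95.6 CPM in butyrate libraries and 135, 122 and 111 CPM in untreated libraries. All 3 butyrate libraries lay below all 3 untreated ones, as did all 3 libraries with both agents. The log2 fold change was -0.67 ± 0.14, adjusted p = 0.00644 for butyrate over untreated and -0.54 ± 0.15, adjusted p = 0.0147 for butyrate + IL-13 over IL-13. The second of these was lost without butyrate + IL-13 replicate 2 or IL-13 replicate 2 (adjusted p 0.0653 to 0.0994). With IL-13 over untreated Gstm1 gave -0.23 ± 0.14, adjusted p = 0.216. Gstm4 (26.8 to 30.8 CPM by group) and Gstm5 (8.25 to 9.94 CPM by group) were called in no comparison. Gstm7 (9.33 to 13.8 CPM by group) was called higher in butyrate + IL-13 over butyrate (0.57 ± 0.19, adjusted p = 0.0227), a call lost without butyrate + IL-13 replicate 3 or butyrate replicate 1 or 2 (adjusted p 0.0701 to 0.0844), when scaled by library totals alone (0.144) and without both libraries high in Lars2 (0.182). The like call of Gstm6 (0.37 ± 0.13, adjusted p = 0.0258) was lost without butyrate + IL-13 replicate 2 or 3 or butyrate replicate 1 or 2 (adjusted p 0.0508 to 0.0948), when scaled by library totals alone (0.361) and without both libraries high in Lars2 (0.0951).

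Of the 3 membrane-bound transferases, 2 fell with IL-13 over untreated and all 3 with butyrate + IL-13 over butyrate. Of all genes, 21.7% and 24.9% were called lower there. Mgst1, of the endoplasmic reticulum and outer mitochondrial membrane, had 58.5, 50.7 and 59.8 CPM in butyrate + IL-13 libraries, 62.3, 63.8 and 66.6 CPM in IL-13 libraries, 121, 142 and 108 CPM in butyrate libraries and 166, 135 and 142 CPM in untreated libraries. No library with IL-13 reached the lowest without it. Mgst1 fell with IL-13 over untreated (-1.20 ± 0.11, adjusted p = 5.96e-08) and with butyrate + IL-13 over butyrate (-1.13 ± 0.11, adjusted p = 1.05e-07). Mgst2, which can join glutathione to leukotriene A, averaged 17.5 ± 2.65 CPM with butyrate + IL-13, 19.9 ± 1.41 CPM with IL-13, 30.9 ± 4.23 CPM with butyrate and 35.6 ± 4.59 CPM in untreated enteroids. It fell in the same comparisons (-0.84 ± 0.14, adjusted p = 6.77e-05 and -0.82 ± 0.14, adjusted p = 8.75e-05). Mgst3, a peroxidase of the same family, averaged 41.4 ± 6.43 CPM with butyrate + IL-13, 58.9 ± 6.49 CPM with IL-13, 54.6 ± 8.61 CPM with butyrate and 71.9 ± 7.56 CPM in untreated enteroids. IL-13 over untreated gave -0.29 ± 0.13, adjusted p = 0.0805 for Mgst3, which is not a call but passed the threshold under 6 of 23 alternatives. Butyrate over untreated gave -0.40, adjusted p = 0.0662 for Mgst3, also not a call, and passed under 7 of 23. Mgst3 was called lower with butyrate + IL-13 over IL-13 (-0.51 ± 0.13, adjusted p = 0.0106), lost without butyrate + IL-13 replicate 1 or IL-13 replicate 2 (adjusted p 0.0551 to 0.0601), and with butyrate + IL-13 over butyrate (-0.40 ± 0.13, adjusted p = 0.0190), lost without butyrate + IL-13 replicate 1 or butyrate replicate 3 (adjusted p 0.0885 to 0.138) and when just the compared groups were fitted (0.0527).

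In the zeta and theta classes every called change was smaller than 2-fold. Gstz1, the maleylacetoacetate isomerase of tyrosine breakdown, averaged 33.5 ± 2.36 CPM with butyrate + IL-13, 36.3 ± 2.59 CPM with IL-13, 47.7 ± 6.58 CPM with butyrate and 49.4 ± 1.54 CPM in untreated enteroids. It fell with IL-13 over untreated (-0.44 ± 0.10, adjusted p = 0.00225) and with butyrate + IL-13 over butyrate (-0.51 ± 0.11, adjusted p = 0.000625). Of the theta class, known for halogenated small molecules, Gstt1 averaged 53.9 ± 4.87 CPM with butyrate + IL-13, 38.8 ± 1.25 CPM with IL-13, 54.1 ± 7.29 CPM with butyrate and 49.3 ± 3.11 CPM in untreated enteroids. Gstt1 fell with IL-13 over untreated (-0.35 ± 0.10, adjusted p = 0.0127), a call lost without untreated replicate 1 (adjusted p 0.0625), and rose with butyrate + IL-13 over IL-13 (0.47 ± 0.11, adjusted p = 0.00391). Gstt3 averaged 89.3 ± 0.311 CPM with butyrate + IL-13, 78.5 ± 1.13 CPM with IL-13, 90.0 ± 5.98 CPM with butyrate and 93.8 ± 6.48 CPM in untreated enteroids, and its fall with IL-13 over untreated (-0.26 ± 0.08, adjusted p = 0.0144) was lost without IL-13 replicate 2 or untreated replicate 1 or 2 (adjusted p 0.0526 to 0.0739). Gstt2, at 55.1 to 66.9 CPM by group, was called only with butyrate + IL-13 over butyrate (0.28 ± 0.10, adjusted p = 0.0257), lost without butyrate + IL-13 replicate 3 or butyrate replicate 1 (adjusted p 0.0950 to 0.105), when scaled by library totals alone (0.683), when just the compared groups were fitted (0.0533) and without both libraries high in Lars2 (0.183).

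The pi and kappa classes were rare, at 2.94 to 5.13 CPM by group for Gstp1 and Gstk1. Gstp2 averaged 2.74 ± 0.497 CPM with butyrate + IL-13, 2.14 ± 0.196 CPM with IL-13, 1.35 ± 0.290 CPM with butyrate and 1.17 ± 0.00711 CPM in untreated enteroids. Gstp2 rose with butyrate + IL-13 over butyrate (1.03 ± 0.29, adjusted p = 0.00686) and with IL-13 over untreated (0.86 ± 0.29, adjusted p = 0.0244), the second of which was lost without IL-13 replicate 1 or 3 or untreated replicate 1, 2 or 3 (adjusted p 0.0569 to 0.0684) and when scaled by library totals alone (0.0634). Gstp1 and Gstp2 are close copies whose reads the counting could split. With the counts of both summed, IL-13 over untreated gave 0.54, adjusted p = 0.0151. Neither Gstp1 nor Gstk1 was called in any comparison.

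**Figure D2:**
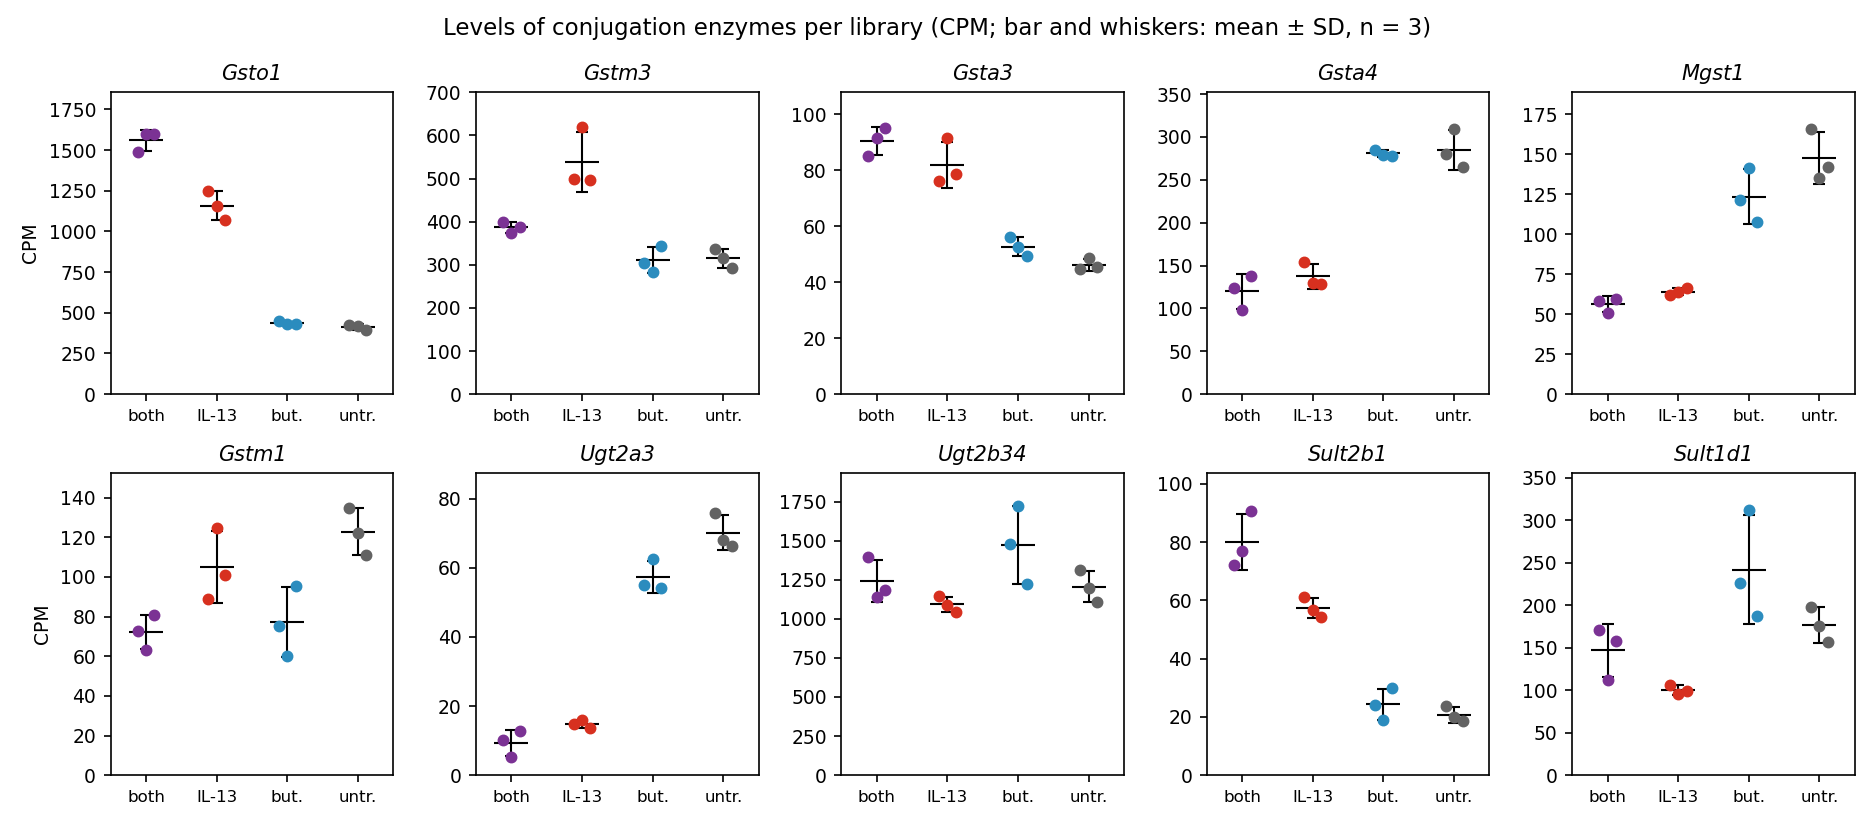
Level of 10 conjugation genes in each library (y axis, CPM; x axis, both = butyrate + IL-13, IL-13, but. = butyrate, untr. = untreated; points are libraries, bars mean ± SD, n = 3). Gsto1, Gsta3 and Sult2b1 sit higher in every library with IL-13 than in any without it, Gsta4, Mgst1 and Ugt2a3 lower, and Ugt2b34 overlaps between groups.

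The promoter windows of 4 transferases called with IL-13, 1 each of the omega, alpha, mu and microsomal groups, are shown because an NRF2 or STAT6 motif could be looked for in them directly; the 4 were picked after their values were seen. RefSeq windows (build GRCm38.p6, which has the coordinates of mm10) run from 250 bases before to 50 after an annotated start, and 43 of the 47 genes had at least 1, with 54 windows in all; the others were Gstt2, Gsta4, Ugt1a6b and Sult4a1. Capitals mark matches, on either strand, to the antioxidant response element core TGACNNNGC bound by NRF2 and to the palindrome bound by STAT6, TTC and GAA with 4 bases between them; the 2 motifs do not overlap in these windows.
Gsto1 (chr19:47854723-47855022, plus strand): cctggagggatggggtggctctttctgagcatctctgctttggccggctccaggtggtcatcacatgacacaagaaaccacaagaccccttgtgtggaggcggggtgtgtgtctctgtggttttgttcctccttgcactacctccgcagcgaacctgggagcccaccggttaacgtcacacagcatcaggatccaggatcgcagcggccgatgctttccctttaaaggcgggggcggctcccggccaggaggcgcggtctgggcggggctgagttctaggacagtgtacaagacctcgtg
Gsta3 (chr1:21240335-21240634, plus strand): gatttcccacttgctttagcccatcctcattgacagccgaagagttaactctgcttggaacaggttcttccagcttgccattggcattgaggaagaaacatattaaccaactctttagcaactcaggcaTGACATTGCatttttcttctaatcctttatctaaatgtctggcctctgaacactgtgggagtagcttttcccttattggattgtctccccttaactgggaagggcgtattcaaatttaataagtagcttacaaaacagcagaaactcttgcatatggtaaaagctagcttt
Gstm3 (chr3:107969125-107969424, minus strand): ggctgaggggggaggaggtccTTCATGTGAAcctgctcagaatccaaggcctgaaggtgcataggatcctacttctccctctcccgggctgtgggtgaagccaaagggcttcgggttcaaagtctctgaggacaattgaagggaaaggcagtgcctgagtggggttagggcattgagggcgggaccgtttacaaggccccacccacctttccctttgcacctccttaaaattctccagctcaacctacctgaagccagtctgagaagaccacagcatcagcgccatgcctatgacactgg
Mgst1 (chr6:138140277-138140576, plus strand): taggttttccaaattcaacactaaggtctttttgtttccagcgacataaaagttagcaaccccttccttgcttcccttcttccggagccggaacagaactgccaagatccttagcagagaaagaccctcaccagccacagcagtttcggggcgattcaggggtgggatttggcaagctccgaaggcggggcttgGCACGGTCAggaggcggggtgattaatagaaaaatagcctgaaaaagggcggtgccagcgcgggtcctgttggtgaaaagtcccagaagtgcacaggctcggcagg
The Gsto1 window holds neither motif. The window of Gsta3, which rose, and the printed window of Mgst1, which fell, each hold 1 antioxidant element core, at position -121 and on the other strand at -56 from the start. Mgst1 has another annotated start, whose window (chr6:138141337-138141636, plus strand) holds neither. The Gstm3 window holds 1 palindrome, at -229. Of the 54 windows 4 held the antioxidant core (those of Gsta3, Gstm5, Gstm7 and Mgst1), beside 12.4% of 32851 windows of all genes. The palindrome stood in 6 of 54 windows, of 5 genes (Gstm1, Gstm3, Gstm6, Ugt1a2 and Sult1a1), beside 6.95% of all windows. The core GCGTG bound by the aryl hydrocarbon receptor stood in 13 of 54 windows, of 11 genes, beside 32.4% of all windows. These matches describe letters in the windows and not binding.

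The 9 Ugt1a rows share their 3′ exons. Each gene of this locus, at chr1:88055388-88220002, has a first exon of its own that is joined to the same following exons, and 1311 exon bases belong to all 9. In the deposited table, 5 of the 9 rows (Ugt1a2, Ugt1a5, Ugt1a6b, Ugt1a8 and Ugt1a10) held at most 0.022% of their counts above the lowest row of the library. Ugt1a9 held 0.655% above it, Ugt1a6a 3.05%, Ugt1a1 18.9% and Ugt1a7c 43.0%. Reads of the common exons had therefore been counted into every row, and the 9 rows are close to a single measurement. The counts above the lowest row can be placed for Ugt1a1, whose other exon bases lie in no other Ugt1a gene. For Ugt1a7c they cannot be placed at its first exon, because in GENCODE M21 that gene alone runs 998 bases further, at chr1:88219005-88220002. The deposited table gives Ugt1a6a the same end.

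**Figure D3:**
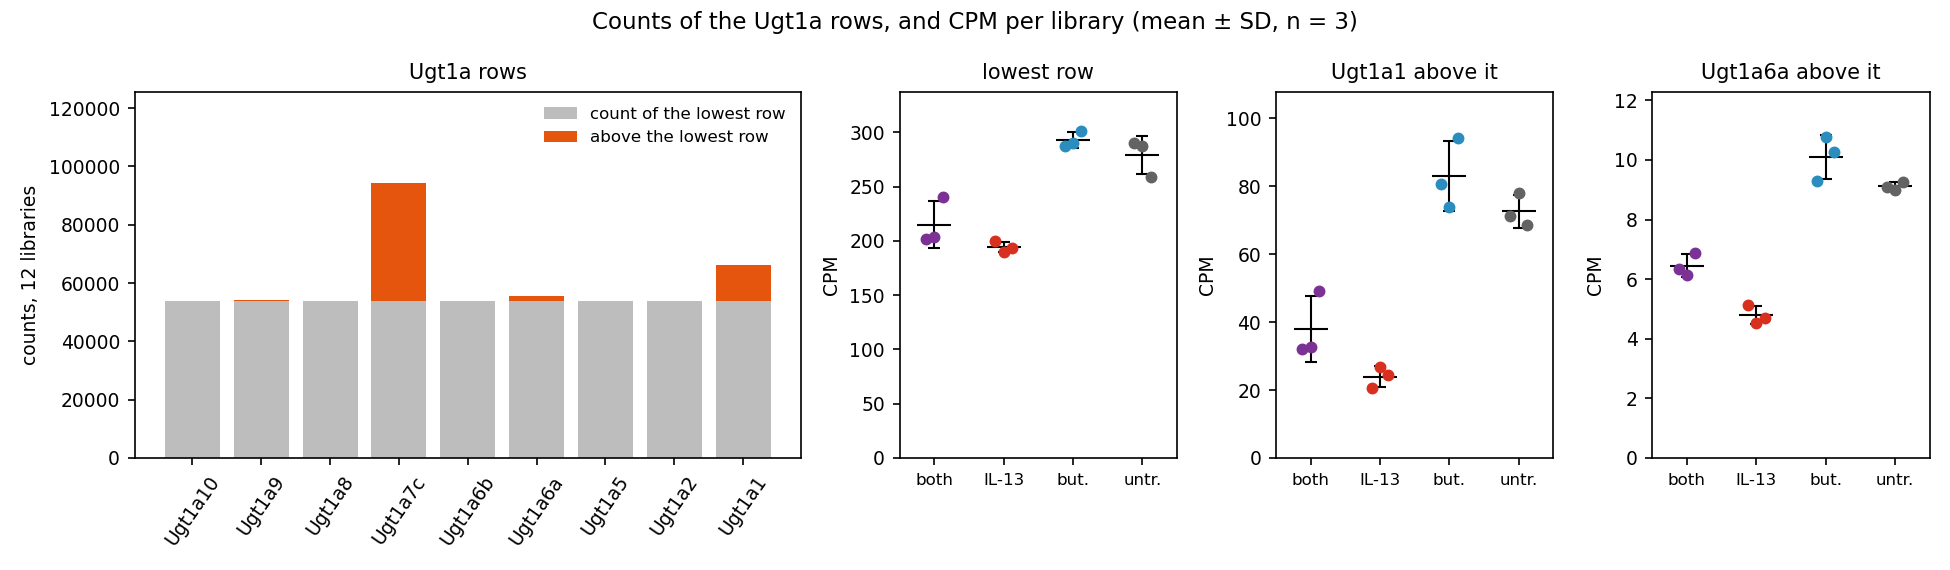
Left, counts summed over 12 libraries (y axis) of the 9 Ugt1a rows (x axis), split into the count of the lowest row (grey) and counts above it (orange). Right, level in each library (y axis, CPM; both = butyrate + IL-13, but. = butyrate, untr. = untreated; bars mean ± SD, n = 3) of the lowest row, of Ugt1a1 above it and of Ugt1a6a above it; all 3 are lower in every library with IL-13 than in any without it.

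Ugt1a1, which conjugates bilirubin, showed a larger fall in its own reads than its row did. The lowest row of the locus had 201, 204 and 240.2 CPM in butyrate + IL-13 libraries, 199.7, 189.8 and 194 CPM in IL-13 libraries, 288, 289.9 and 301 CPM in butyrate libraries and 291, 287 and 259 CPM in untreated libraries. It fell with IL-13 over untreated (-0.52 ± 0.08, adjusted p = 5.17e-05) and with butyrate + IL-13 over butyrate (-0.44 ± 0.08, adjusted p = 0.000211). The counts of Ugt1a1 above that row came to 31.9, 32.6 and 49.2 CPM in butyrate + IL-13 libraries, 20.5, 26.8 and 24.4 CPM in IL-13 libraries, 80.5, 74.0 and 94.3 CPM in butyrate libraries and 71.3, 78.1 and 68.6 CPM in untreated libraries. They fell with IL-13 over untreated (-1.60 ± 0.15, adjusted p = 1.02e-07), where the deposited row gave -0.69 ± 0.09, and with butyrate + IL-13 over butyrate (-1.13 ± 0.14, adjusted p = 4.20e-06). Libraries with both agents lay above those with IL-13 alone (0.67 ± 0.15, adjusted p = 0.00427), whereas the deposited row was not called there (0.21 ± 0.09, adjusted p = 0.0919). The counts of the row of Ugt1a6a, an enzyme for simple phenols, averaged 6.44 ± 0.385 CPM with butyrate + IL-13, 4.78 ± 0.303 CPM with IL-13, 10.1 ± 0.737 CPM with butyrate and 9.11 ± 0.133 CPM in untreated enteroids above the lowest row. They fell with IL-13 over untreated (-0.93 ± 0.15, adjusted p = 6.52e-05) and with butyrate + IL-13 over butyrate (-0.65 ± 0.15, adjusted p = 0.00135). Butyrate over untreated gave 0.19 ± 0.14, adjusted p = 0.479 for Ugt1a1 and 0.15 ± 0.14, adjusted p = 0.593 for Ugt1a6a. The counts above the lowest row in the Ugt1a6a row cannot be placed at that gene's own first exon, since part of its other exon bases is shared with 1 or more further Ugt1a genes. The counts of Ugt1a7c above the lowest row, the largest such part, fell less than the lowest row did. IL-13 over untreated gave -0.39 ± 0.08, adjusted p = 0.0010, and butyrate + IL-13 over butyrate -0.21 ± 0.08, adjusted p = 0.0491. Those of Ugt1a9 were few and not called with IL-13 over untreated (-0.88 ± 0.44, adjusted p = 0.114). Splitting the locus this way was chosen after the counts had been seen.

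The UGT2 genes lie together on chromosome 5, and they did not move together. Ugt2a3 (chr5:87324972-87337195), whose human counterpart conjugates bile acids, had 10.04, 5.34 and 12.8 CPM in butyrate + IL-13 libraries, 14.8, 16.1 and 13.7 CPM in IL-13 libraries, 55.1, 62.7 and 54.3 CPM in butyrate libraries and 76.0, 68.1 and 66.5 CPM in untreated libraries. The highest library with IL-13 stood at 16.1 CPM and the lowest without it at 54.3 CPM. Ugt2a3 fell to 0.212 of the untreated level with IL-13 (-2.24 ± 0.17, adjusted p = 1.04e-08) and to 0.165 of the butyrate level with butyrate + IL-13 (-2.60 ± 0.18, adjusted p = 2.43e-09). Butyrate + IL-13 also lay below IL-13 (-0.65 ± 0.19, adjusted p = 0.0227), a call lost without butyrate + IL-13 replicate 2 or IL-13 replicate 1 or 2 (adjusted p 0.0575 to 0.0823). Its promoter window (chr5:87337146-87337445, minus strand) is shown for the largest fall among the well-expressed members; it holds neither motif marked above.
Ugt2a3: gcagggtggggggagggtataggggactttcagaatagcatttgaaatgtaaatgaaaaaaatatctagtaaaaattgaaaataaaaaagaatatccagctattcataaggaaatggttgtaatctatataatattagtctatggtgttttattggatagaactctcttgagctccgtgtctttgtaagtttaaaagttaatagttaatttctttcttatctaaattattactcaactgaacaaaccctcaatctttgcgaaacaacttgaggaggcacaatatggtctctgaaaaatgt

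Ugt2b34 (chr5:86889767-86906937), the most abundant UGT message, had 1395, 1142 and 1186 CPM in butyrate + IL-13 libraries, 1143, 1088 and 1046 CPM in IL-13 libraries, 1476, 1722 and 1224 CPM in butyrate libraries and 1312, 1199 and 1109 CPM in untreated libraries. The groups overlapped in all 4 comparisons, and none was called. IL-13 over untreated gave -0.14 ± 0.11, adjusted p = 0.310, with a 95% interval of -0.40 to 0.11. Butyrate + IL-13 over butyrate gave -0.25 ± 0.11, adjusted p = 0.0704. Ugt2b35 averaged 125 ± 19.2 CPM with butyrate + IL-13, 137 ± 7.87 CPM with IL-13, 159 ± 18.7 CPM with butyrate and 150.3 ± 9.49 CPM in untreated enteroids and was called lower only with butyrate + IL-13 over butyrate (-0.35 ± 0.11, adjusted p = 0.0113), lost without butyrate + IL-13 replicate 3 (adjusted p 0.0988), when just the compared groups were fitted (0.0520) and without both libraries high in Lars2 (0.187). The rare Ugt2b36 had 1.19, 0.398 and 1.39 CPM in butyrate + IL-13 libraries, 1.01, 0.824 and 1.23 CPM in IL-13 libraries, 5.20, 5.51 and 4.08 CPM in butyrate libraries and 6.77, 5.96 and 5.60 CPM in untreated libraries. The highest library with IL-13 lay below the lowest without it, and Ugt2b36 fell with IL-13 over untreated (-2.58 ± 0.29, adjusted p = 1.36e-06) and with butyrate + IL-13 over butyrate (-2.30 ± 0.30, adjusted p = 6.42e-06). Ugt2b5 averaged 0.519 ± 0.138 CPM with butyrate + IL-13, 0.142 ± 0.144 CPM with IL-13, 2.04 ± 0.248 CPM with butyrate and 0.816 ± 0.385 CPM in untreated enteroids and fell in the same comparisons (-2.53 ± 0.66, adjusted p = 0.00483 and -1.96 ± 0.49, adjusted p = 0.00286). Ugt2b1 averaged 1.52 ± 0.269 CPM with butyrate + IL-13, 1.00 ± 0.306 CPM with IL-13, 1.51 ± 0.585 CPM with butyrate and 0.555 ± 0.274 CPM in untreated enteroids; its rise with butyrate over untreated (1.48 ± 0.43, adjusted p = 0.0438) was lost without butyrate + IL-13 replicate 2, IL-13 replicate 1, 2 or 3, butyrate replicate 1 or 2 or untreated replicate 2 or 3 (adjusted p 0.0516 to 0.238), when scaled by library totals alone (0.0545), when just the compared groups were fitted (0.0779), with a replicate block (0.0538), without both libraries high in Lars2 (0.0739) and when thinned to the lowest total (0.263). Close copies within the Ugt2b genes could share reads, so the rare rows are uncertain.

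The sulfotransferases also divided. Sult2b1, which sulfates cholesterol and pregnenolone, had 72.2, 77.0 and 90.7 CPM in butyrate + IL-13 libraries, 61.1, 56.6 and 54.2 CPM in IL-13 libraries, 24.1, 19.1 and 29.8 CPM in butyrate libraries and 23.6, 19.9 and 18.5 CPM in untreated libraries. Every library with IL-13 lay above every one without it. Sult2b1 rose 2.77-fold with IL-13 over untreated (1.47 ± 0.14, adjusted p = 1.43e-07) and 3.29-fold with butyrate + IL-13 over butyrate (1.72 ± 0.14, adjusted p = 1.33e-08). It was also called higher with butyrate + IL-13 over IL-13 (0.48 ± 0.13, adjusted p = 0.0156), a call lost without butyrate + IL-13 replicate 3 or IL-13 replicate 2 or 3 (adjusted p 0.0537 to 0.0756) and when scaled by library totals alone (0.0541). Sult1d1 (chr5:87554645-87569027), which sulfates catecholamines in the mouse, had 171, 112 and 158 CPM in butyrate + IL-13 libraries, 106, 95.3 and 98.8 CPM in IL-13 libraries, 226, 312 and 187 CPM in butyrate libraries and 198, 175 and 157 CPM in untreated libraries. Libraries with IL-13 alone were the lowest. Sult1d1 fell with IL-13 over untreated (-0.82 ± 0.16, adjusted p = 0.000480) and with butyrate + IL-13 over butyrate (-0.72 ± 0.16, adjusted p = 0.00120). Its rise with butyrate + IL-13 over IL-13 (0.55 ± 0.16, adjusted p = 0.0209) was lost without butyrate + IL-13 replicate 1 or 3 or IL-13 replicate 2 or 3 (adjusted p 0.0711 to 0.0759), when scaled by library totals alone (0.0651) and with no filter on low counts (0.0918).

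Sult1b1, the neighbour of Sult1d1 at chr5:87513339-87538195 and an enzyme for phenols and thyroid hormones, had 206, 165 and 213 CPM in butyrate + IL-13 libraries, 163, 155 and 155 CPM in IL-13 libraries, 191, 227 and 162 CPM in butyrate libraries and 159, 145 and 142 CPM in untreated libraries. IL-13 and untreated libraries overlapped (0.08 ± 0.11, adjusted p = 0.595), as did those with both agents and butyrate (0.01 ± 0.11, adjusted p = 0.930). Butyrate over untreated was called (0.38 ± 0.11, adjusted p = 0.0458), but the call was lost without IL-13 replicate 1, 2 or 3, butyrate replicate 1 or 2 or untreated replicate 1, 2 or 3 (adjusted p 0.0610 to 0.182), when scaled by library totals alone (0.0867), with just the genes averaging 50 counts or more (0.0515), when just the compared groups were fitted (0.0755), with a replicate block (0.0568) and without both libraries high in Lars2 (0.134). Sult1c2, a phenol sulfotransferase, averaged 18.8 ± 3.68 CPM with butyrate + IL-13, 22.4 ± 3.45 CPM with IL-13, 39.6 ± 2.15 CPM with butyrate and 39.3 ± 1.06 CPM in untreated enteroids. It fell with IL-13 over untreated (-0.81 ± 0.13, adjusted p = 7.19e-05) and with butyrate + IL-13 over butyrate (-1.08 ± 0.13, adjusted p = 3.09e-06). Sult4a1, known chiefly from brain, averaged 3.50 ± 0.974 CPM with butyrate + IL-13, 3.17 ± 0.294 CPM with IL-13, 2.44 ± 0.348 CPM with butyrate and 1.25 ± 0.251 CPM in untreated enteroids and rose with IL-13 over untreated (1.32 ± 0.28, adjusted p = 0.000849). Its call with butyrate over untreated (0.94 ± 0.27, adjusted p = 0.0426) was lost without IL-13 replicate 1, 2 or 3, butyrate replicate 1 or 3 or untreated replicate 1, 2 or 3 (adjusted p 0.0518 to 0.175), when scaled by library totals alone (0.0580), when just the compared groups were fitted (0.0579), with a replicate block (0.0572) and when thinned to the lowest total (0.0865).

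Summed by family, the changes of single genes partly cancelled. The 24 glutathione transferase genes together averaged 2703 ± 90.8 CPM with butyrate + IL-13, 2479 ± 135 CPM with IL-13, 1712 ± 57.1 CPM with butyrate and 1784 ± 69.1 CPM in untreated enteroids. That is 1.39 times the untreated sum with IL-13, and the value without Gsto1 is 0.963. Gsto1 alone held 99.9% of the omega counts and Gstm3 67.0% of the mu counts. The Gsta sum averaged 214 ± 23.2 CPM with butyrate + IL-13, 222 ± 11.96 CPM with IL-13, 337 ± 7.71 CPM with butyrate and 335 ± 25.3 CPM in untreated enteroids, set by Gsta4 with 76.9% of its counts. The Mgst sum averaged 115 ± 9.04 CPM with butyrate + IL-13, 143 ± 8.75 CPM with IL-13, 209 ± 12.2 CPM with butyrate and 255 ± 5.17 CPM in untreated enteroids. The UGTs, with the Ugt1a locus taken as its lowest row, averaged 1593 ± 146 CPM with butyrate + IL-13, 1441 ± 51.3 CPM with IL-13, 1992 ± 267 CPM with butyrate and 1714 ± 132 CPM in untreated enteroids, and the sulfotransferases 444 ± 56.0 CPM with butyrate + IL-13, 341 ± 9.45 CPM with IL-13, 502 ± 91.9 CPM with butyrate and 387 ± 32.6 CPM in untreated enteroids. Family sums were not tested. Scaled by library totals alone, the median of all genes shifted to -0.18 (log2) for IL-13 over untreated and to -0.27 for butyrate + IL-13 over butyrate, and the other contrasts to -0.14 and -0.08. Under that scaling the family ratios kept their side of 1 in these contrasts except Gstt with butyrate + IL-13 over butyrate (1.05 against 0.900), Gsta with butyrate over untreated (1.01 against 0.964) and all glutathione transferases with butyrate + IL-13 over IL-13 (1.09 against 0.9995).

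**Figure D4:**
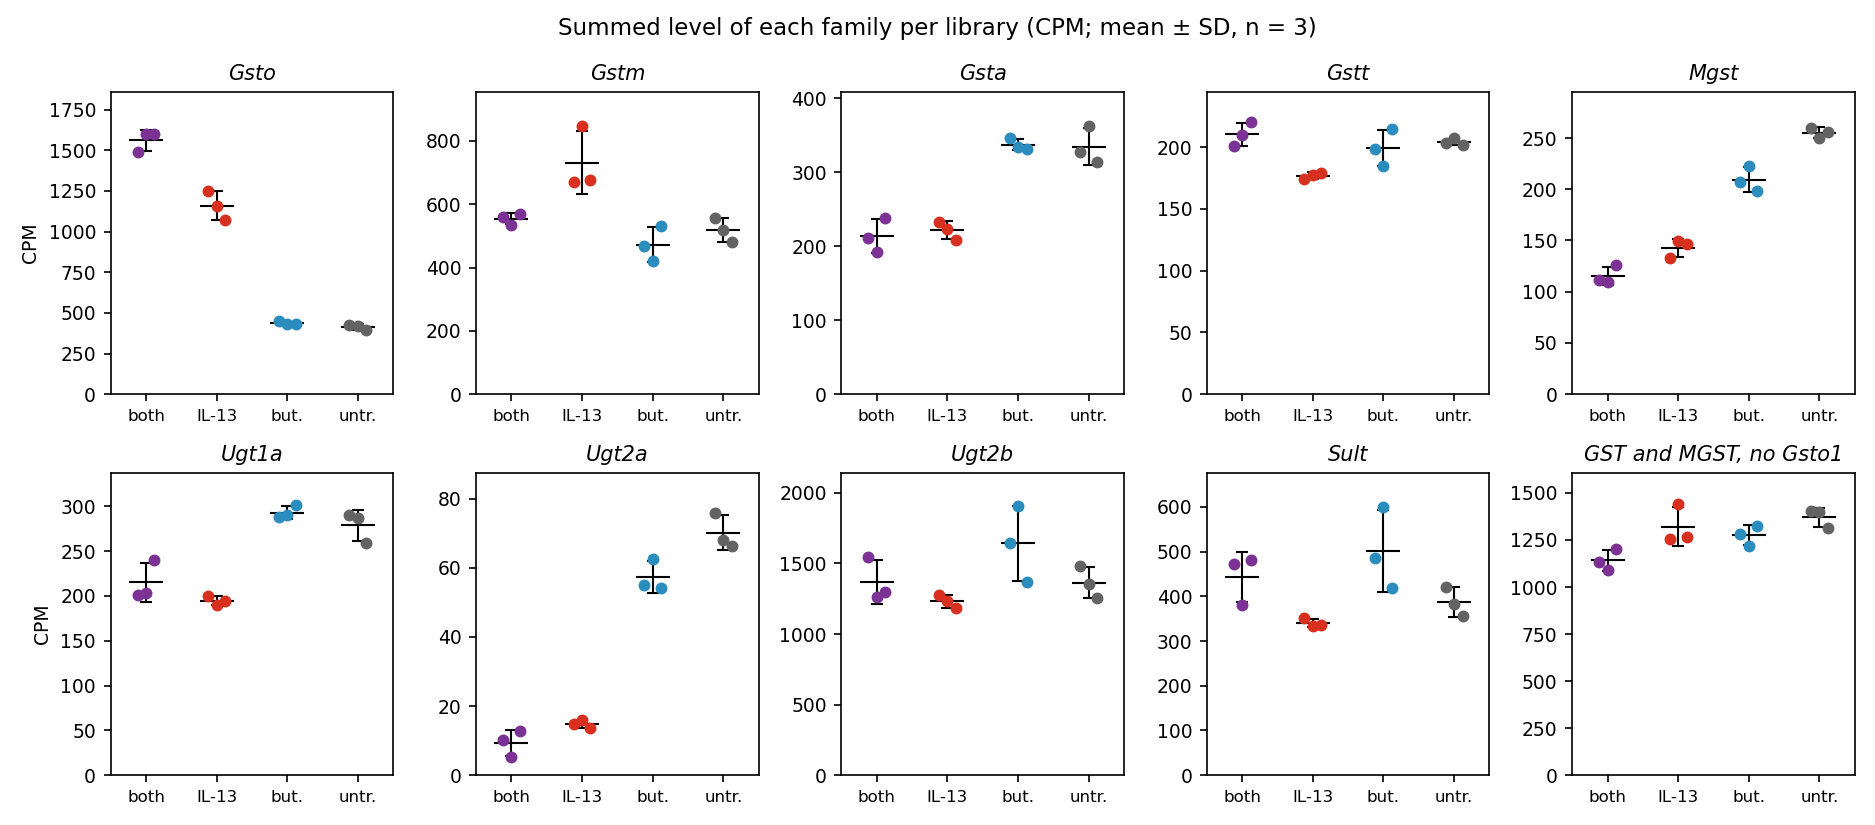
Summed level of each family in each library (y axis, CPM; both = butyrate + IL-13, but. = butyrate, untr. = untreated; points are libraries, bars mean ± SD, n = 3); Ugt1a is the lowest row of its locus, and the last panel sums all soluble and microsomal glutathione transferases except Gsto1. Gsto is higher and Gsta, Mgst, Ugt1a and Ugt2a are lower in every library with IL-13 than in any without it, and the Ugt2b groups overlap.

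Per kilobase of exon, levels averaged over the 4 groups were in the order Gsto1 (441 CPM per kb), Gstm3 (296), Ugt2b34 (291), Gsta4 (162) and the Ugt1a rows (58.7 to 134.8, a range that their shared reads inflate). Sult1d1 (67.7), Gstm1 (64.0) and Sult1b1 (62.4) followed. Gstm3 and Ugt2b34 changed places between groups, Gstm3 being higher with IL-13 and with both agents, and Ugt2b34 higher with butyrate and in untreated enteroids. Gsto1 was first in the 2 groups with IL-13, and in untreated enteroids it stood at 203.9 CPM per kb, below Ugt2b34 at 279.8, Gstm3 at 240.2 and Gsta4 at 225.0.

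The IL-13 change was measured in 2 separate pairs of groups that share no library, with butyrate and without it. With the Ugt1a locus once, 17 of 35 features were called in both, and all 17 went the same way, 6 higher and 11 lower. They made up 81.0% of the 21 called without butyrate and 73.9% of the 23 called with it. Over all rows the shares were 81.0% and 73.7%, with 4835 of 4847 going the same way, so these genes were like the rest in this. The interaction, which tests whether the IL-13 change differed with butyrate, was called for 0 of 43 rows by edgeR, with 0.865% of all genes called. At an unadjusted p under 0.05 there were 8 such rows, 18.6% of the 43, beside 10.8% of all genes. With the Ugt1a locus once there were likewise 8, or 22.9% of the 35 features. DESeq2 called 1, Gsto1 (0.37, adjusted p = 0.0260, where edgeR gave 0.35 ± 0.11, adjusted p = 0.177).

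Butyrate's own calls were few, 4 of 43 rows or 9.30%, near the 7.90% of all genes, and mostly unstable. Over all genes the 1086 such calls also moved, from 559 to 1395 with single libraries left out. Besides Gstm1, which fell, the called genes were Sult1b1, Sult4a1 and Ugt2b1, and their calls are given with the losses above. Of the 9 calls of butyrate + IL-13 over IL-13, those of Gsto1, Gstt1 and Gstm3 held under every alternative tried. Gsta2 gave 1.30 ± 0.45, adjusted p = 0.0489, a call lost without butyrate + IL-13 replicate 2 or 3, IL-13 replicate 1, 2 or 3, butyrate replicate 1 or untreated replicate 3 (adjusted p 0.0562 to 0.188), when scaled by library totals alone (0.0675), with a replicate block (0.0681) and without both libraries high in Lars2 (0.175).

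The supply of the 3 cosubstrates was followed in lists of genes outside the name rule. Beside the counts of these and later lists stand the shares of all genes called higher and lower. They were 21.8% and 21.7% with IL-13 over untreated, and 22.9% and 24.9% with butyrate + IL-13 over butyrate. With butyrate over untreated they were 5.14% and 2.76%, and with butyrate + IL-13 over IL-13 9.85% and 11.3%. Of 15 tested genes of glutathione synthesis and recycling, 10 rose and 2 fell with IL-13 over untreated; the counts were 8 and 3 with butyrate + IL-13 over butyrate, 4 and 0 with butyrate over untreated, and 3 and 1 with butyrate + IL-13 over IL-13. The median log2 fold change with IL-13 was 0.50. Gclc, the catalytic subunit of the rate-limiting ligase, had 145, 111 and 123 CPM in butyrate + IL-13 libraries, 191, 178 and 186 CPM in IL-13 libraries, 85.9, 85.2 and 87.5 CPM in butyrate libraries and 102, 100.4 and 101 CPM in untreated libraries. The IL-13 libraries were the highest, and those with both agents stood between them and the rest. Gclc rose with IL-13 over untreated (0.87 ± 0.09, adjusted p = 2.78e-07) and was lower with butyrate + IL-13 than with IL-13 (-0.55 ± 0.09, adjusted p = 0.000227). Gclm, its modifier subunit, gave 0.16 ± 0.10, adjusted p = 0.190 with IL-13. Gss, which completes glutathione, rose (0.50 ± 0.07, adjusted p = 2.73e-05), as did Gsr, which reduces the oxidized form (0.80 ± 0.10, adjusted p = 2.21e-06).

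Ggt1 and Dpep1, which break down glutathione outside the cell, both rose with IL-13 and with butyrate, each over untreated. Ggt1, the gamma-glutamyl transferase of the brush border, had 97.0, 122 and 118 CPM in butyrate + IL-13 libraries, 38.4, 41.6 and 37.2 CPM in IL-13 libraries, 31.8, 30.0 and 39.8 CPM in butyrate libraries and 9.38, 10.7 and 8.31 CPM in untreated libraries. Each treatment alone lay above untreated, and both together lay above either. Ggt1 rose with IL-13 over untreated (2.04 ± 0.13, adjusted p = 1.13e-09), with butyrate over untreated (1.83 ± 0.13, adjusted p = 1.00e-07) and with butyrate + IL-13 over IL-13 (1.52 ± 0.12, adjusted p = 1.90e-07). Dpep1, the dipeptidase that follows it, averaged 122 ± 16.6 CPM with butyrate + IL-13, 67.5 ± 1.48 CPM with IL-13, 20.2 ± 2.43 CPM with butyrate and 12.9 ± 1.38 CPM in untreated enteroids, and rose with IL-13 (2.39 ± 0.12, adjusted p = 3.13e-11) and with butyrate (0.65 ± 0.12, adjusted p = 0.00208), each over untreated. Of 10 glutathione peroxidases and peroxiredoxins, 5 rose and 1 fell with IL-13 over untreated, 7 and 2 with butyrate + IL-13 over butyrate, 1 and 2 with butyrate over untreated, and 0 and 1 with butyrate + IL-13 over IL-13. Gpx2, the peroxidase of the gut epithelium, averaged 845 ± 45.1 CPM with butyrate + IL-13, 976 ± 93.9 CPM with IL-13, 133 ± 12.9 CPM with butyrate and 175 ± 11.004 CPM in untreated enteroids and rose with IL-13 over untreated (2.48 ± 0.09, adjusted p = 7.28e-13). Prdx1 and Prdx5 rose (1.08 ± 0.10 and 0.95 ± 0.10), and Prdx4, of the secretory pathway, fell (-1.63 ± 0.22).

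For glucuronidation, 5 of 8 genes of UDP-glucuronic acid supply rose and 1 fell with IL-13 over untreated, 5 and 1 with butyrate + IL-13 over butyrate, 2 and 1 with butyrate over untreated, and 3 and 1 with butyrate + IL-13 over IL-13. Ugdh, which makes UDP-glucuronic acid, averaged 128 ± 7.03 CPM with butyrate + IL-13, 99.4 ± 9.86 CPM with IL-13, 101 ± 6.93 CPM with butyrate and 79.1 ± 1.81 CPM in untreated enteroids. It rose with IL-13 over untreated (0.33 ± 0.09, adjusted p = 0.00517), a call lost when scaled by library totals alone (0.134). Its rise with butyrate over untreated (0.36 ± 0.09, adjusted p = 0.0143) was lost without butyrate replicate 1 or untreated replicate 2 or 3 (adjusted p 0.0632 to 0.0738). Ugp2, which makes UDP-glucose, gave -0.12 ± 0.12, adjusted p = 0.450 with IL-13. Pgm1, a phosphoglucomutase, rose (0.68 ± 0.10, adjusted p = 1.44e-05), and Gusb, the lysosomal glucuronidase that removes the group, fell (-0.48 ± 0.08, adjusted p = 0.000162).

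For sulfation, 3 of 12 genes rose and 5 fell with IL-13 over untreated, 1 and 4 with butyrate + IL-13 over butyrate, 2 and 1 with butyrate over untreated, and 2 and 1 with butyrate + IL-13 over IL-13. The synthases of the sulfate donor, Papss1 and Papss2, moved in opposite directions. Papss1 averaged 50.9 ± 4.19 CPM with butyrate + IL-13, 53.1 ± 4.81 CPM with IL-13, 76.0 ± 5.30 CPM with butyrate and 93.8 ± 3.95 CPM in untreated enteroids and fell with IL-13 over untreated (-0.82 ± 0.09, adjusted p = 1.25e-06). Papss2 had 324, 244 and 371 CPM in butyrate + IL-13 libraries, 317, 241 and 238 CPM in IL-13 libraries, 261, 300.2 and 289.7 CPM in butyrate libraries and 121, 133 and 116 CPM in untreated libraries. Each of the 3 treated groups lay above untreated enteroids, and they overlapped among themselves. Papss2 rose with IL-13 (1.10 ± 0.13, adjusted p = 2.47e-06) and with butyrate (1.20 ± 0.13, adjusted p = 1.71e-05), each over untreated, while butyrate + IL-13 over butyrate gave 0.14 ± 0.13, adjusted p = 0.384; the interaction was -0.96 ± 0.18, adjusted p = 0.0173, a call lost without IL-13 replicate 1 or untreated replicate 3 (adjusted p 0.0517 to 0.0531). Slc26a6, an anion exchanger, rose with IL-13 over untreated (0.76 ± 0.09, adjusted p = 3.48e-06), and the sulfate transporter Slc26a2 fell (-0.47 ± 0.10, adjusted p = 0.00138).

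**Figure D5:**
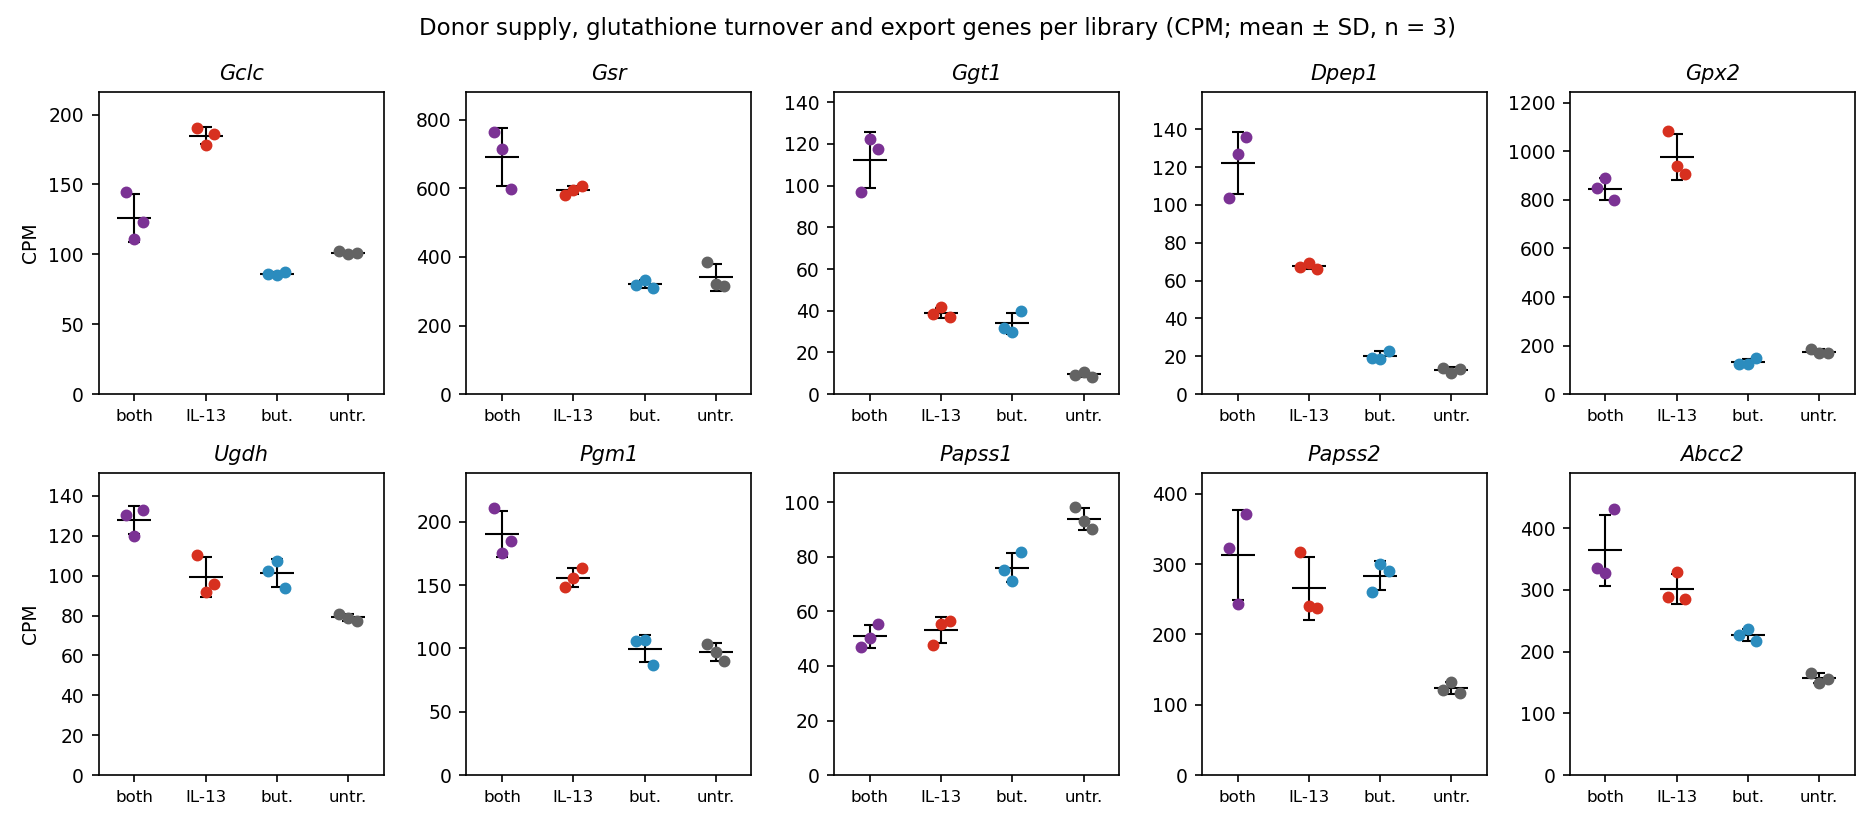
Level in each library (y axis, CPM; both = butyrate + IL-13, but. = butyrate, untr. = untreated; points are libraries, bars mean ± SD, n = 3) of 10 genes that supply, recycle or export the cosubstrates and conjugates. Ggt1 and Abcc2 are higher in each treated group than in untreated enteroids, Gpx2 and Gsr separate by IL-13, and Papss1 and Papss2 move in opposite directions with IL-13.

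The wider programs around conjugation divided as well. Of 20 genes of the NRF2 pathway and its textbook targets, 11 rose and 4 fell with IL-13 over untreated, 13 and 3 with butyrate + IL-13 over butyrate, 4 and 1 with butyrate over untreated, and 3 and 0 with butyrate + IL-13 over IL-13. The median log2 fold change with IL-13 was 0.30 beside -0.01 over all genes. Me1 and G6pdx, which supply NADPH, rose (3.65 ± 0.15, adjusted p = 1.69e-12 and 1.88 ± 0.09, adjusted p = 8.24e-12), as did Srxn1, which repairs peroxiredoxins (1.64 ± 0.08, adjusted p = 1.28e-11). Of 30 xenobiotic receptors and oxidizing or hydrolysing enzymes, 7 rose and 12 fell with IL-13 over untreated, 7 and 14 with butyrate + IL-13 over butyrate, 3 and 1 with butyrate over untreated, and 6 and 7 with butyrate + IL-13 over IL-13. Cyp2b10, the classical target of the constitutive androstane receptor, fell (-1.79 ± 0.18, adjusted p = 3.36e-07), as did the carboxylesterase Ces2e (-1.37 ± 0.11, adjusted p = 2.71e-08) and the alcohol dehydrogenase Adh1 (-1.20 ± 0.12, adjusted p = 2.60e-07).

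Of 12 conjugate exporters and uptake carriers, 4 rose and 4 fell with IL-13 over untreated, 5 and 3 with butyrate + IL-13 over butyrate, 1 and 1 with butyrate over untreated, and 1 and 0 with butyrate + IL-13 over IL-13. Abcc2, the apical pump for glutathione and glucuronide conjugates, averaged 364 ± 57.7 CPM with butyrate + IL-13, 301 ± 24.4 CPM with IL-13, 227 ± 9.55 CPM with butyrate and 157 ± 7.71 CPM in untreated enteroids. It rose with IL-13 (0.94 ± 0.10, adjusted p = 5.49e-07) and with butyrate (0.53 ± 0.10, adjusted p = 0.00195), each over untreated. Abcb1a, the apical drug pump, averaged 42.3 ± 7.03 CPM with butyrate + IL-13, 51.6 ± 4.40 CPM with IL-13, 118 ± 9.90 CPM with butyrate and 109 ± 9.03 CPM in untreated enteroids, and fell with IL-13 over untreated (-1.08 ± 0.11, adjusted p = 4.29e-07). Of 6 methyl and acyl conjugation genes, 2 rose and 2 fell with IL-13 over untreated and likewise with butyrate + IL-13 over butyrate. As3mt, which methylates arsenic, fell with IL-13 over untreated (-0.96 ± 0.15, adjusted p = 4.40e-05).

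Of 8 related enzymes whose names fall outside the rule, 4 rose and 1 fell with IL-13 over untreated, 1 and 2 with butyrate + IL-13 over butyrate, 0 and 1 with butyrate over untreated, and 0 and 3 with butyrate + IL-13 over IL-13. Hpgds, the sigma-class glutathione transferase that makes prostaglandin D, had 1.66, 0.398 and 0.878 CPM in butyrate + IL-13 libraries, 4.18, 5.49 and 4.49 CPM in IL-13 libraries, 0.548, 0.312 and 0.453 CPM in butyrate libraries and 1.64, 1.82 and 1.05 CPM in untreated libraries. The IL-13 libraries were the highest. Hpgds rose with IL-13 over untreated (1.63 ± 0.34, adjusted p = 0.000799) and was lower with butyrate + IL-13 than with IL-13 (-2.26 ± 0.38, adjusted p = 0.000432). Tuft cells, which express Hpgds, had 6 of 6 markers called higher with IL-13 over untreated and 5 of 6 lower with butyrate + IL-13 over IL-13; the markers summed to 14.7 to 22.3 CPM with butyrate + IL-13, 65.7 to 72.9 CPM with IL-13, 7.36 to 11.6 CPM with butyrate and 14.9 to 21.6 CPM in untreated enteroids. Their part in the change of Hpgds was not tested. In bulk RNA, fewer cells of a type and less RNA per cell cannot be told apart.

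Marker sums of epithelial cell types differed between the groups. Absorptive enterocyte markers, 8 genes, summed to 8758 to 11649.6 CPM with butyrate + IL-13, 7462 to 7978 CPM with IL-13, 6901 to 7482 CPM with butyrate and 4941 to 5558 CPM in untreated enteroids. Proliferation markers, 4 genes, summed to 131 to 145 CPM with butyrate + IL-13, 164 to 238 CPM with IL-13, 455 to 557 CPM with butyrate and 539 to 549 CPM in untreated enteroids, and 4 of 4 fell in both IL-13 comparisons. Stem cell markers, 4 genes, summed to 137 to 157 CPM with butyrate + IL-13, 114 to 156 CPM with IL-13, 234 to 256 CPM with butyrate and 289 to 293 CPM in untreated enteroids. Enteroendocrine markers, 4 genes, summed to 154 to 279.7 CPM with butyrate + IL-13, 1114 to 1204 CPM with IL-13, 423 to 516 CPM with butyrate and 962 to 1290.3 CPM in untreated enteroids. Goblet cell markers, 6 genes, summed to 2046 to 2131 CPM with butyrate + IL-13, 3387 to 4387 CPM with IL-13, 2096 to 2661 CPM with butyrate and 2697 to 3906 CPM in untreated enteroids. Paneth cell markers, 4 genes, summed to 1229.6 to 1793 CPM with butyrate + IL-13, 2328 to 3179.8 CPM with IL-13, 2988 to 3801 CPM with butyrate and 1611 to 2169.6 CPM in untreated enteroids. A sum follows its most abundant genes. With IL-13 over untreated, 1 of 4 Paneth markers rose and 2 fell (median log2 fold change -0.89), and 1 of 6 goblet markers rose and 2 fell. The counts were 4 and 1 for enterocyte, 0 and 2 for stem cell and 0 and 1 for enteroendocrine markers. The part of these cell types in the changes of the conjugation genes was not tested.

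In the authors' deposited table, which compares untreated with IL-13 libraries, 29 of the 43 tested members had a false discovery rate under 0.05. Of these, 28 were among the 29 called here, and all 28 had the same direction in the authors' deposited table. Mgst3, with a rate of 0.0194, was the member called there alone, and Gstp2, at 0.0735, the member called here alone.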

How the data were processed

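RNA-seq counts per gene were read from 1 deposited table of 12 libraries in 4 groups of 3, assigned by their column names. Per the file headers the authors' table holds raw counts, and it lists genes whose corrected p was below 1 in the authors' own comparison of untreated with IL-13 libraries. Per the submitters' processing notes, mm10 was the build. For the aligner, the counter, the annotation and the use of strand, nothing is stated in the labels or headers read here. The authors' deposited log2 fold changes and their p-values and false discovery rates were used only for the closing paragraph of the Results.

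The 18092 rows gave 18068 genes, 23 genes having several rows that were summed. With edgeR 4.0.16 (R 4.3.3), filterByExpr kept 13750 genes and removed 4318. TMM factors, 1 model over the 12 libraries and quasi-likelihood tests with Benjamini-Hochberg adjustment over all 13750 genes gave the calls at 0.05. The common biological coefficient of variation was 10.2%. On simulated counts for IL-13 over untreated, 200 of 13493 genes were changed. The test recovered 77.6% of those changed 1.5-fold, 85.1% of those changed 2-fold and 92.4% of those changed 4-fold, with 10 false calls. In the libraries themselves 43.5% of the genes tested were called in that comparison. Recovery with so large a share of genes changed was not tested. Totals of 13867982 to 24294456 counts set the counting precision, and every pair of replicates differed beyond counting noise (chi-square per degree of freedom 3.90 to 37.7). PCR copies cannot be told from independent molecules here.

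Exon lengths came from GENCODE M21 and promoter windows from RefSeq. Alternatives, 23 settings including DESeq2 1.42.0, other scalings and filters, a replicate block and each library left out, are given at the end. Members passing the filter are described with values where a group averaged at least 10 CPM or where a call was at least 2-fold. In each pathway list up to 4 genes with the smallest adjusted p were eligible to be named, with the donor-supply enzymes whatever their p. The members and lists were chosen with earlier results of these data known.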

Additional observations from a re-analysis of the deposited data

Results flagged for a closer look

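The change with IL-13 differed with butyrate, by the interaction term of edgeR's quasi-likelihood model, for 3 genes of the pathway lists. Tpst1, a protein-tyrosine sulfotransferase whose name falls outside the rule, averaged 2.00 ± 0.833 CPM with butyrate + IL-13, 8.56 ± 1.25 CPM with IL-13, 6.38 ± 0.288 CPM with butyrate and 8.93 ± 0.638 CPM in untreated enteroids, with an interaction of -1.62 ± 0.30 (log2, adjusted p = 0.0137). Papss2, described above, had an interaction of -0.96 ± 0.18 (adjusted p = 0.0173). Me1, which supplies NADPH, averaged 146 ± 15.7 CPM with butyrate + IL-13, 123 ± 17.6 CPM with IL-13, 6.18 ± 1.50 CPM with butyrate and 9.70 ± 1.32 CPM in untreated enteroids, with an interaction of 0.90 ± 0.21 (adjusted p = 0.0471). That of Me1 missed the threshold without any library but butyrate replicate 2 and IL-13 replicate 1 (adjusted p 0.0538 to 0.167), when scaled by library totals alone (0.0655), with just the genes averaging 50 counts or more (0.0543) and when thinned to the lowest total (0.0616).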

How the results depend on the processing

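Of the 73 calls over the conjugation genes and the 5 comparisons, 53 held under every alternative that gave a value and 20 were lost under at least 1. No called change turned its direction, and 22 uncalled ones passed the threshold at least once. With IL-13 over untreated 26 of 29 calls held throughout, with butyrate over untreated 1 of 4, with butyrate + IL-13 over IL-13 3 of 9, and with butyrate + IL-13 over butyrate 23 of 31. These tallies count the 9 Ugt1a rows singly, although they are close to a single measurement. All 9 were called and held throughout with IL-13 over untreated and with butyrate + IL-13 over butyrate. The shares of calls that held are therefore raised by that locus.

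The 4 genes called with butyrate over untreated became 2 when scaled by library totals alone, with a replicate block or when thinned to the lowest total, and 1 with just the genes averaging 50 counts or more or when just the compared groups were fitted. Leaving out single libraries gave 1 to 6 calls there, 27 to 30 with IL-13 over untreated, 4 (without IL-13 replicate 2) to 10 with butyrate + IL-13 over IL-13, 26 to 32 with butyrate + IL-13 over butyrate and 0 for the interaction, for which DESeq2 called 1. Over all genes, the 1086 calls with butyrate over untreated became 607, 559 and 624 without untreated replicate 2, untreated replicate 3 and butyrate replicate 1. The 2912 calls with butyrate + IL-13 over IL-13 became 1935 without butyrate + IL-13 replicate 3, and the 119 for the interaction became 265 by DESeq2 and 55 to 213 with 1 library left out. Taking the Ugt1a locus once was chosen after seeing the data and left 21 calls with IL-13 over untreated.

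Scaled by library totals alone, the summed levels with IL-13 over untreated were 0.590 times for Gsta, 2.50 for Gsto, 0.771 for Gstt, 0.654 for Gstz, 0.499 for Mgst, 0.784 for Sult, 0.621 for Ugt1a, 0.189 for Ugt2a, 0.804 for Ugt2b, 1.24 for all glutathione transferases, 0.858 for these without Gsto1 and 0.749 for all UGTs. With butyrate + IL-13 over butyrate they were 0.541 times for Gsta, 1.00 for Gstm, 3.05 for Gsto, 1.22 for Gstp, 0.900 for Gstt, 0.470 for Mgst, 0.626 for Ugt1a, 1.35 for all glutathione transferases and 0.763 for these without Gsto1. With butyrate + IL-13 over IL-13 they were 1.09 times for Gstt and 0.9995 for all glutathione transferases. These ratios moved by more than 1 SD between replicates; by construction this scaling shifts every gene of a library by the same factor.

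No pairing by the replicate numbers of the titles was seen: deviations from the group means correlated between -0.318 and 0.234 over the 18 same-numbered pairs. The labels do not say whether same-numbered libraries share a culture or animal, and these correlations cannot exclude it. With the replicate number as a block, 30 genes were called with IL-13 over untreated and 2 with butyrate over untreated. With 3 libraries per group, changes of rare members such as Gsto2, Gsta2, Gstp2, Ugt2b1 and Ugt2b5 rest on few counts.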
